A study of Mus musculus with 12 samples.

Results

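The 3 TGF-beta ligand genes Tgfb1, Tgfb2 and Tgfb3, the receptor genes Tgfbr1 and Tgfbr2 and the SMAD genes Smad2, Smad3, Smad4, Smad6 and Smad7 were followed in H9c2 cells exposed to doxorubicin. These 10 genes were chosen by name from the 54345 genes in the deposited expression values, each matched 1 row, and all 10 passed the filter on low values. H9c2(2-1) is a wild-type myoblast line that the study's methods describe as rat cardiomyoblasts, whereas GEO's organism label is Mus musculus and the deposited genes carry mouse identifiers. All 12 libraries came from this line after 6 h, with 3 libraries in each of 4 groups, namely untreated cells (Unt), cells given doxorubicin (DOX), an anthracycline chemotherapy drug, cells given doxorubicin with dexrazoxane (D_DXZ), a cardioprotective iron chelator, and cells given doxorubicin with magnesium hexacyanoferrate nanocatalysts (D_MgHCF). No group received dexrazoxane or MgHCF without doxorubicin, and the doses in the sequenced cells are not given in the sources used here. The labels number the replicates but do not say whether they were separate cultures, so the p-values measure the spread between these libraries, which may be technical.

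TGF-beta ligands are secreted in a latent form and, once released, bring together a type II receptor (Tgfbr2) and a type I receptor (Tgfbr1), which phosphorylates the receptor SMADs (Smad2 and Smad3). These join the common SMAD (Smad4) and enter the nucleus, where they act on target genes such as those of the extracellular matrix. The inhibitory SMADs (Smad6 and Smad7) act against the receptors and are themselves classic target genes of the pathway, and in the heart the pathway is best known for its part in fibrosis and remodelling.

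Expression was given as FPKM, fragments per kilobase of gene after library scaling, so levels of different genes are corrected for length. Reads of rat cells may be lost to different degrees at different mouse genes, which FPKM does not correct. Orders of level between genes are therefore descriptions of the deposited values. All values (100%) could be turned back into whole reads, and 16626514 to 19365119 reads fell on genes in each library. The scaling in the deposited FPKM equalled a median-ratio scaling, which sets the typical gene level between libraries, and the summed FPKM differed 2.89-fold between libraries, from 216899 to 230292 in Unt and from 498756 to 627769 in DOX. A fold change here is therefore relative to the typical gene, and it is given also after conversion to TPM, in which every library has the same sum. D_MgHCF replicate 3 stood apart from the others of its group, with correlations of 0.957 and 0.974 across genes against 0.988 between replicates 1 and 2 and at least 0.991 within each of the other groups. The 11 myoblast and muscle markers summed to between 232 and 282 FPKM in Unt, 877 and 1141 in DOX, 699 and 882 in D_DXZ, and 122 and 174 in D_MgHCF. Nearly all of this came from Vim, the intermediate filament of mesenchymal cells at large, and Gata4, a cardiac transcription factor, had means of 10.3 FPKM in Unt, 3.35 in DOX, 2.93 in D_DXZ and 19.2 in D_MgHCF. Des, the muscle intermediate filament, was present at a low level, with means of 1.46 FPKM in Unt (122 to 148 reads a library), 0.552 in DOX, 0.542 in D_DXZ and 0.861 in D_MgHCF, and Tnnt2, Mef2c and Nkx2-5 had means under 1 FPKM in every group. Myod1, Myf5, Myog, Actc1 and Myh6 were at or near 0 FPKM in all groups, so these genes do not bear out the myoblast label, while Gata4 and Des were present. As reads of rat cells were counted on mouse genes, values near 0 do not settle the label. Of the markers of other cell types, endothelial genes summed to at most 0.989 FPKM and epithelial genes to at most 1.37 FPKM in any library, and the 3 macrophage and leukocyte genes lay between 0.888 and 1.11 FPKM in Unt, 2.75 and 3.52 in DOX, 3.79 and 4.29 in D_DXZ, and 1.98 and 4.79 in D_MgHCF. Nearly all of the latter came from Cd68, a lysosomal protein gene, while Ptprc and Adgre1 were at or near 0. The summed FPKM of 5 fibroblast markers lay between 20.03 and 21.6 in Unt, 66.1 and 79.7 in DOX, 42.5 and 65.0 in D_DXZ, and 19.3 and 32.9 in D_MgHCF, nearly all of it from the collagen gene Col1a1, while Thy1 and Tcf21 were at or near 0. The part of cell composition in the results below was not tested, and in such bulk RNA fewer cells of a type and less RNA per cell cannot be told apart.

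In untreated cells the SMADs and the ligands lay at like levels, from a few to about 20 FPKM. Smad4, the SMAD shared by all branches of the pathway, had the highest mean at 19.1 ± 0.827 FPKM (SD, n = 3), followed by Smad3 at 14.0 ± 0.713 and Tgfb3 at 12.7 ± 0.502, each apart from the next. Tgfb2, Tgfbr2, Smad2, Smad6 and Tgfb1 came next with means from 10.2 down to 8.19 FPKM, and the libraries of each overlapped with those of its neighbour in this order. Smad7 at 3.24 ± 0.189 FPKM and Tgfbr1 at 2.62 ± 0.190 FPKM were lowest. With DOX the 3 ligands took the first places, with Tgfb1 at 18.0 ± 2.04 FPKM, Tgfb3 at 11.7 ± 0.566 and Tgfb2 at 6.02 ± 0.348, and Smad4 was down to 3.39 ± 1.19. The 6 other genes below Tgfb2 in DOX, from Tgfbr2 down to Tgfbr1 at 1.47 ± 0.517 FPKM, overlapped step by step with each other and with Smad4. In D_DXZ the order again began with Tgfb1 at 16.0 ± 2.69 FPKM and Tgfb3 at 10.3 ± 0.0612, and in D_MgHCF with Tgfb3 at 21.02 ± 2.16 FPKM and Smad3 at 14.3 ± 0.662, while the other 8 genes of D_MgHCF overlapped from one to the next.

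**Figure D1:**
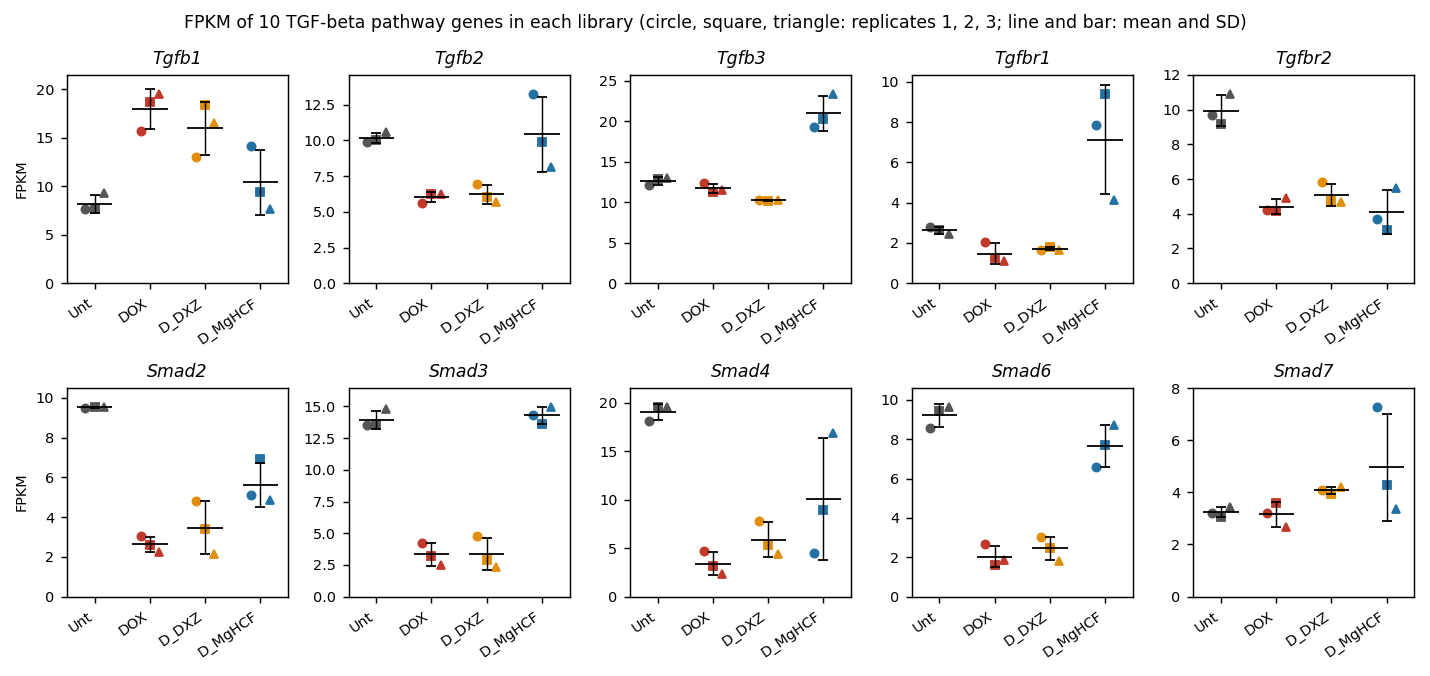
FPKM (vertical axes, from 0) of the 10 genes in the 12 libraries, by group (horizontal axes), with each library as a point and the mean and SD of 3 libraries as a line and bar. Smad2, Smad3, Smad4 and Smad6 were low in DOX and D_DXZ, and Smad3 in D_MgHCF lay within the range of Unt in 2 of 3 libraries and just above it in the other, while Tgfb3 and Tgfbr1 in D_MgHCF lay above all other libraries.

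Set against untreated cells, doxorubicin moved 7 of the 10 genes, with 6 lower and 1 higher at an adjusted p under 0.05 (limma on log2(FPKM + 1), Benjamini-Hochberg over 25044 genes). Smad2, Smad3, Smad4, Smad6, Tgfbr2 and Tgfb2 fell and Tgfb1 rose. Over all genes tested 19.9% were called lower and 18.6% higher. The DOX and Unt libraries did not overlap for 8 of the 10 genes, where 51.8% of all genes had no overlap. The 10 genes had a median log2 fold change of -0.84, and all genes together one of 0.0. After TPM scaling 9 of the 10 were called lower and 0 higher, where 40.8% of all genes were lower and 4.44% higher. For the 11515 genes with a mean of 1 FPKM or more, the median went from 0.05 as deposited to -1.18. The position of the 10 genes among these is given below as a percentile, from lowest to highest fold change. TPM scaling divides each library by 1 number, so it could hardly change this position. Quantile normalization could, and it moved Smad7 from the 47.6 to the 65.6 percentile and Tgfb1 from 77.5 to 85.8.

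The receptor SMADs lost most of their transcript level with DOX. Smad3, which carries the signal of TGF-beta and activin receptors to DNA (chr9:63646767-63757994, minus strand, GRCm38), had 13.5, 13.6 and 14.8 FPKM in Unt and 4.24, 3.23 and 2.50 in DOX. All DOX libraries lay far below all Unt libraries. The log2 fold change was -1.81 (SE 0.194, adjusted p = 4.21e-05 in limma), at the 4.01 percentile of all fold changes and at the 4.48 percentile after TPM scaling. Smad2, its partner with a like role (chr18:76241580-76305731, plus strand), had 9.49, 9.55 and 9.52 FPKM in Unt and 3.03, 2.59 and 2.27 in DOX, again without overlap. It fell by 1.54 on the log2 scale (SE 0.204, adjusted p = 0.000148 in limma), at the 7.23 percentile.

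Smad4, which joins the receptor SMADs and enters the nucleus with them (chr18:73639009-73703780, minus strand), showed the largest fall of the 10 genes. Its libraries had 18.1, 19.6 and 19.6 FPKM in Unt and 4.69, 3.13 and 2.35 FPKM in DOX, from 101 or more reads each. The log2 fold change was -2.23 (SE 0.371, adjusted p = 0.000657 in limma), at the 1.30 percentile of genes with a mean FPKM of at least 1. A processed pseudogene, AC132418.2, lies within Smad4 on the opposite strand.

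Of the inhibitory SMADs, Smad7 was not called and Smad6 fell. Smad7, the main inhibitor of the TGF-beta receptor complex (chr18:75367529-75395935, plus strand), had 3.21, 3.06 and 3.44 FPKM in Unt and 3.22, 3.59 and 2.66 in DOX. The groups overlapped, with a log2 fold change of -0.03 (SE 0.202, adjusted p = 0.963 in limma) that was 0.41 after quantile normalization. After TPM scaling it was called lower, at -1.26 (adjusted p = 0.000311), as it was over summed reads, at -0.75 (adjusted p = 0.00936).

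Smad6, known mainly for restraining BMP receptors (chr9:63953076-64022059, minus strand), had 8.57, 9.44 and 9.65 FPKM in Unt and 2.65, 1.60 and 1.83 in DOX. The lowest Unt library was above the highest DOX library. It fell by 1.77 on the log2 scale (SE 0.168, adjusted p = 2.21e-05 in limma), at the 4.41 percentile.

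Smad3 and Smad6 are neighbours on the minus strand of chromosome 9, with 195.082 kb between them, and they were called lower and higher in the same comparisons. The 250 bases upstream of their RefSeq start sites (GRCm38.p6) are shown for this reason, beside those of the ligand gene Tgfb2. Tgfb2 lies on chromosome 1 and had matches to the SMAD motif. It was called lower and higher in the same comparisons as Smad3 and Smad6, so these calls were not particular to the neighbours. The windows are mouse reference sequences, not reads of these cells, and run 5′ to 3′ on the strand of the gene. Capitals mark matches on either strand to CAGAC, the SMAD-binding element, to GGCGCC, a GC-rich SMAD motif, to TGANTCA, the AP-1 motif, and to TGACG, the half-site of the cAMP response element. No matches overlapped.
Smad3, chr9:63757995-63758244: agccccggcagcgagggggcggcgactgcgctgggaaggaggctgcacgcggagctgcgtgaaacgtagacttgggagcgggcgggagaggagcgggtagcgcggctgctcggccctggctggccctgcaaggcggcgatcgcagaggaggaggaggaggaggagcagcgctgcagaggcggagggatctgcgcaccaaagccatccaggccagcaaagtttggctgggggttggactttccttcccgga
Smad6, chr9:64022060-64022309: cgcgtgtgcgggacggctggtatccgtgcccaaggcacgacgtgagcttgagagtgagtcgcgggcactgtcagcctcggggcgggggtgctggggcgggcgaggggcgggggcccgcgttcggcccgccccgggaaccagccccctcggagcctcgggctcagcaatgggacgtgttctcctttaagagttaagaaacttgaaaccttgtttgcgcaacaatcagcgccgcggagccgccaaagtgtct
Tgfb2, chr1:186705990-186706239: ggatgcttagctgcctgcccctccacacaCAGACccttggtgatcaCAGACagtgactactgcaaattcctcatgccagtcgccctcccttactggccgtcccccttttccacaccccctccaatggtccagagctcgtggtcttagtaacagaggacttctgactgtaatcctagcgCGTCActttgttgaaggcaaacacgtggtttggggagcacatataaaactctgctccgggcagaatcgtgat
The windows of Smad3 and Smad6 held none of the 4 motifs and had a GC content of 69.2% and 66.8%. That of Tgfb2 held CAGAC at 2 places and TGACG, read on the opposite strand, at 1 place, with a GC content of 53.6%. Among 27025 RefSeq promoter windows of this length, 42.1% held CAGAC, 9.54% GGCGCC, 6.87% TGANTCA and 17.9% TGACG, so these matches are common letters and only describe the windows. RefSeq promoter windows were at hand for 6 of the 10 genes, those shown and those of Tgfb1, Tgfbr1 and Tgfbr2. The window of Tgfb1 held none of the 4 motifs, that of Tgfbr1 held GGCGCC at 1 place and that of Tgfbr2 CAGAC at 1 place.

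The 3 ligand genes moved apart with DOX. Tgfb1, the ligand most widely linked to fibrosis (chr7:25687002-25705077, plus strand), had 7.63, 7.65 and 9.29 FPKM in Unt and 15.7, 18.7 and 19.6 in DOX. On the deposited scale it rose by 1.04 on the log2 scale (SE 0.197, adjusted p = 0.00149 in limma), while after TPM scaling the log2 fold change was -0.23 (adjusted p = 0.186 in limma). The reads behind these values were 968, 924 and 1145 in Unt and 1199, 1207 and 1141 in DOX, so the size and sign of its change depended on the library scaling. Its place among genes was the 77.5 percentile of fold changes as deposited and the 74.4 percentile after TPM scaling, which can hardly change it. After quantile normalization it was the 85.8 percentile. Tgfb2, which is required for heart development (chr1:186622792-186705989, minus strand), had 9.88, 10.0 and 10.6 FPKM in Unt and 5.62, 6.22 and 6.22 in DOX. It fell by 0.67 on the log2 scale (SE 0.146, adjusted p = 0.00360 in limma), a call that was lost after quantile normalization (adjusted p = 0.0525). Tgfb3 (chr12:86056745-86079041, minus strand), the third ligand, had 12.1, 12.9 and 13.0 FPKM in Unt and 12.4, 11.3 and 11.5 in DOX, which overlapped, with a log2 fold change of -0.10 (adjusted p = 0.411 in limma). It was called lower after TPM scaling, at -1.43 (adjusted p = 4.93e-05), and over summed reads, at -0.98 (adjusted p = 0.000114).

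The receptors were both lower in every DOX library than in every Unt library, though only Tgfbr2 was called as deposited. Tgfbr2, which binds the ligand (chr9:116084293-116175360, minus strand), had 9.71, 9.17 and 10.9 FPKM in Unt and 4.19, 4.16 and 4.90 in DOX. The log2 fold change was -1.01 (SE 0.163, adjusted p = 0.000529 in limma), at the 18.9 percentile. Tgfbr1, the kinase that phosphorylates Smad2 and Smad3 (chr4:47353222-47414931, plus strand), had 2.80, 2.63 and 2.42 FPKM in Unt and 2.06, 1.24 and 1.098 in DOX, from as few as 83 reads. Its log2 fold change of -0.57 (SE 0.241, adjusted p = 0.0918 in limma) did not pass the test. It was called after TPM scaling (-1.86, adjusted p = 0.000276), over summed reads (-1.17, adjusted p = 0.00328), by voom on the recovered reads (-1.001, adjusted p = 0.0280), with a pseudocount of 0.1 (-0.84, adjusted p = 0.0427), with a filter at 1 FPKM (adjusted p = 0.0372) and in a fit of these 2 groups alone (adjusted p = 0.0398). It was also called without DOX replicate 1 (adjusted p = 0.0485) and without D_MgHCF replicate 3 (adjusted p = 0.00903), a library that adds only to the common estimate of spread.

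**Figure D2:**
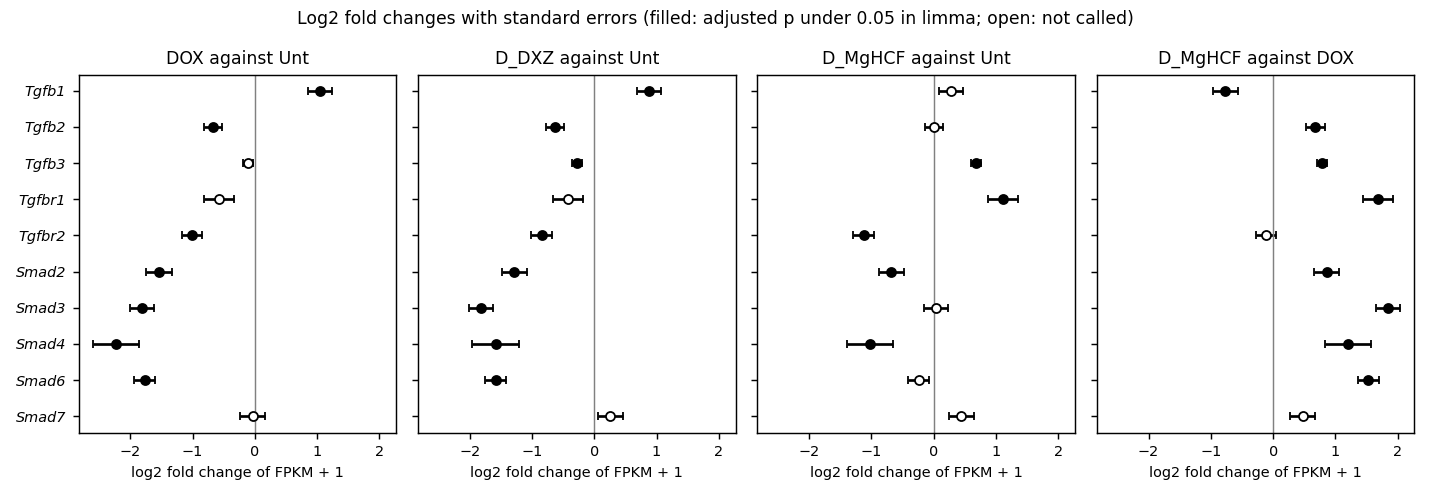
Log2 fold changes of FPKM + 1 (horizontal axes) with their standard errors for the 10 genes (vertical axis) in 4 comparisons, filled where limma called the gene at an adjusted p under 0.05. Smad2, Smad3, Smad4 and Smad6 were lower by 1.28 or more on the log2 scale in both DOX and D_DXZ than in Unt, and Smad3 was near 0 in D_MgHCF against Unt; the sign for Tgfb1 in DOX and D_DXZ turned after TPM scaling.

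Dexrazoxane added to doxorubicin changed none of the 10 genes in the test. In D_DXZ against DOX, limma called 0 of 10 at an adjusted p under 0.05, 0 of 10 had an unadjusted p under 0.05, and voom on the recovered reads also called 0. Over all 25044 genes 0.0% were called higher and 0.0% lower, and 9.54% had an unadjusted p under 0.05. The estimates ranged from -0.17 for Tgfb3 to 0.64 for Smad4, which had 7.84, 5.30 and 4.36 FPKM in D_DXZ (log2 fold change SE 0.371, adjusted p = 0.637 in limma), and that of Smad3 was -0.01. The D_DXZ and DOX libraries overlapped for 8 genes and did not for 2, where 16.3% of all genes had no overlap. Of those apart, D_DXZ lay below DOX for Tgfb3, with 10.3, 10.2 and 10.3 FPKM, and above it for Smad7, with 4.08, 3.95 and 4.19 FPKM. The standard errors, up to 0.371 on the log2 scale, leave room for moderate differences.

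Against untreated cells, D_DXZ gave 7 lower and 1 higher of the 10 genes, where 18.0% of all genes were lower and 15.9% higher. After TPM scaling 9 were lower and 0 higher, where 40.3% of all genes were lower and 3.65% higher. Both this comparison and DOX against Unt used the same Unt libraries. Smad3, with 4.76, 2.92 and 2.36 FPKM in D_DXZ, fell by 1.82 on the log2 scale (SE 0.194, adjusted p = 9.51e-05 in limma). The log2 fold changes of Smad4, Smad6 and Smad2 were -1.59, -1.58 and -1.28, those of Tgfbr2 and Tgfb2 were -0.85 and -0.63, and all had an adjusted p of at most 0.00673 in limma. Tgfb1 had 13.0, 18.3 and 16.5 FPKM and rose by 0.88 on the log2 scale (adjusted p = 0.00539 in limma), which was -0.23 after TPM scaling. Tgfb3 had a log2 fold change of -0.28 (SE 0.0822, adjusted p = 0.0229 in limma), and its call was lost when any of Unt replicates 2 and 3 or D_DXZ replicates 1, 2 and 3 was left out, with adjusted p from 0.0521 to 0.0808.

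MgHCF added to doxorubicin gave 7 of the 10 genes higher and 1 lower than doxorubicin alone. Smad3, Smad6, Tgfbr1, Smad4, Smad2, Tgfb3 and Tgfb2 rose and Tgfb1 fell. Over all genes 31.4% were called higher and 20.1% lower. The 10 genes had a median log2 fold change of 0.82, and all genes together one of 0.07. After TPM scaling all 10 were called higher, where 53.9% of all genes were higher and 6.75% lower. As DOX libraries enter this comparison and DOX against Unt alike, the values of the 2 comparisons are given side by side and are not independent.

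Smad3 had 14.3, 13.7 and 15.0 FPKM in D_MgHCF, with no overlap with DOX. It rose by 1.84 on the log2 scale (SE 0.194, adjusted p = 3.29e-05 in limma), at the 96.1 percentile, and against Unt the log2 fold change was 0.03 (SE 0.194, adjusted p = 0.914). Smad6 had 6.58, 7.73 and 8.71 FPKM and rose by 1.53 on the log2 scale over DOX (SE 0.168, adjusted p = 4.19e-05 in limma). It lay close to Unt, with a log2 fold change of -0.24 (SE 0.168, adjusted p = 0.275 in limma) and overlapping libraries. Smad7, like these neighbours, was not called in D_MgHCF against Unt, while Smad2 and Smad4 were called lower. Of the 3 other SMADs tested, Smad1, Smad5 and Smad9, 1 was called lower and 0 higher in this comparison, so the lack of a call was not particular to the neighbours.

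Smad2 and Smad4 came back in part and were more spread. Smad2 had 5.10, 6.91 and 4.84 FPKM in D_MgHCF, all above DOX and all below Unt. The log2 fold change was 0.86 against DOX (SE 0.204, adjusted p = 0.00531 in limma) and -0.68 against Unt (adjusted p = 0.0234), and the latter call was lost without D_MgHCF replicate 1 or without any 1 of the Unt libraries, with adjusted p from 0.0615 to 0.0680. Smad4 had 4.46, 8.90 and 16.8 FPKM, so replicate 1 lay within the range of DOX and replicate 3 just below Unt. It was called higher than DOX, with a log2 fold change of 1.21 (SE 0.371, adjusted p = 0.0201 in limma), a call lost in 6 of 21 alternative settings. Among these were the fits without DOX replicate 2 or 3 or D_MgHCF replicate 2 (adjusted p from 0.0512 to 0.0746). Quantile normalization was another, with a log2 fold change of 1.002 (adjusted p = 0.0759 in limma). Without D_MgHCF replicate 3 the value was 0.78 (adjusted p = 0.0475). Against Unt the adjusted p of 0.04998 for a log2 fold change of -1.02 was at the threshold, the call was lost in 16 of 21 alternative settings, and the value was -0.59 without D_MgHCF replicate 1.

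Tgfb3 and Tgfbr1 were the genes above every other group in D_MgHCF. Tgfb3 had 19.3, 20.3 and 23.4 FPKM, with the lowest of these above every library of the other groups. The log2 fold change was 0.79 against DOX (SE 0.0822, adjusted p = 3.12e-05 in limma) and 0.68 against Unt (SE 0.0822, adjusted p = 0.000191). Gm48008, a transcript on the opposite strand with at most 1.28 FPKM, overlaps Tgfb3 at its start and shares 258 bases, and reads there could not be assigned with certainty. The protein-coding gene Ttll5, also on the opposite strand, overlaps the other end of Tgfb3 and had at most 2.76 FPKM. Gm37804, within Tgfb3 on the opposite strand, had at most 0.174 FPKM. Tgfbr1 had 7.85, 9.42 and 4.12 FPKM, again all above the other 9 libraries, with replicate 3 well below the other two. It rose by 1.68 on the log2 scale over DOX (SE 0.241, adjusted p = 0.000226 in limma) and by 1.11 over Unt (adjusted p = 0.00523). Both calls held in all 21 alternative settings, TPM and quantile scaling among them.

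Tgfbr2 was not called against DOX as deposited. It had 3.72, 3.08 and 5.49 FPKM in D_MgHCF, overlapping with DOX, and the log2 fold change against DOX was -0.11 (SE 0.163, adjusted p = 0.587 in limma) as deposited and 0.98 after TPM scaling (adjusted p = 0.00536). Against Unt it fell by 1.13 on the log2 scale (SE 0.163, adjusted p = 0.000534 in limma), at the 8.07 percentile, with all D_MgHCF libraries below all Unt libraries. Parts of the Tgfbr2 transcript, 150 to 171 bases long, match 9 other genes at 95.03 to 96.3% identity, so a small share of its reads is uncertain.

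Tgfb2 and Tgfb1 returned towards untreated levels. Tgfb2 had 13.3, 9.90 and 8.12 FPKM in D_MgHCF and rose by 0.68 on the log2 scale over DOX (SE 0.146, adjusted p = 0.00290 in limma), with a log2 fold change of 0.01 against Unt. The overlapping antisense gene Gm29491 reached at most 1.22 FPKM. Tgfb1 had 14.1, 9.36 and 7.69 FPKM, all below DOX, and was lower by a log2 fold change of -0.77 (SE 0.197, adjusted p = 0.00806 in limma), which was 0.38 after TPM scaling (adjusted p = 0.0239). Smad7 had 7.29, 4.27 and 3.35 FPKM and was not called against DOX (log2 fold change 0.48, adjusted p = 0.0718 in limma) or Unt (0.44, adjusted p = 0.106), while after TPM scaling it was called higher than DOX, at 1.64 (adjusted p = 5.23e-05). Without D_MgHCF replicate 3 it was called in both, at 0.68 (adjusted p = 0.00786) and 0.64 (adjusted p = 0.0121).

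Against Unt, D_MgHCF had 2 of the 10 genes higher (Tgfb3 and Tgfbr1) and 3 lower (Tgfbr2, Smad2 and Smad4), where 24.3% of all genes were higher and 15.7% lower. After TPM scaling 2 were higher and 2 lower, where 26.6% of all genes were higher and 19.2% lower. Without D_MgHCF replicate 1 or any 1 of the Unt libraries, 3 of the 10 were called. Replicate 3 of D_MgHCF was the library nearest to the Unt mean for 6 genes, replicate 2 for 3 genes and replicate 1 for 1 gene, and the mean distance over the 10 genes was 0.37, 0.58 and 0.82 on the log2(FPKM + 1) scale. Against D_DXZ, D_MgHCF had 6 genes higher and 1 lower, where 29.4% of all genes were higher and 19.0% lower. After TPM scaling all 10 were called higher, where 51.1% of all genes were higher and 6.23% lower. Smad3 was higher by 1.85 on the log2 scale (adjusted p = 4.06e-05 in limma), Tgfbr1 by 1.53 (adjusted p = 0.000504), Smad6 by 1.34 (adjusted p = 0.000115), Tgfb3 by 0.96 (adjusted p = 1.52e-05), Tgfb2 by 0.64 (adjusted p = 0.00450) and Smad2 by 0.60 (adjusted p = 0.0332). Tgfb1 was the lower one, at -0.60 (adjusted p = 0.0283 in limma), and it was called higher after TPM scaling, at 0.38 (adjusted p = 0.0250). The call of Smad2 was lost without D_DXZ replicate 2 or 3 or D_MgHCF replicate 2 (0.61, 0.37 and 0.46), and that of Tgfb1 without any of these or D_MgHCF replicate 3. Tgfbr2 was called without D_MgHCF replicate 3 (-0.47, adjusted p = 0.00803), as was Smad4 without D_MgHCF replicate 1 (0.99, adjusted p = 0.0247).

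**Figure D3:**
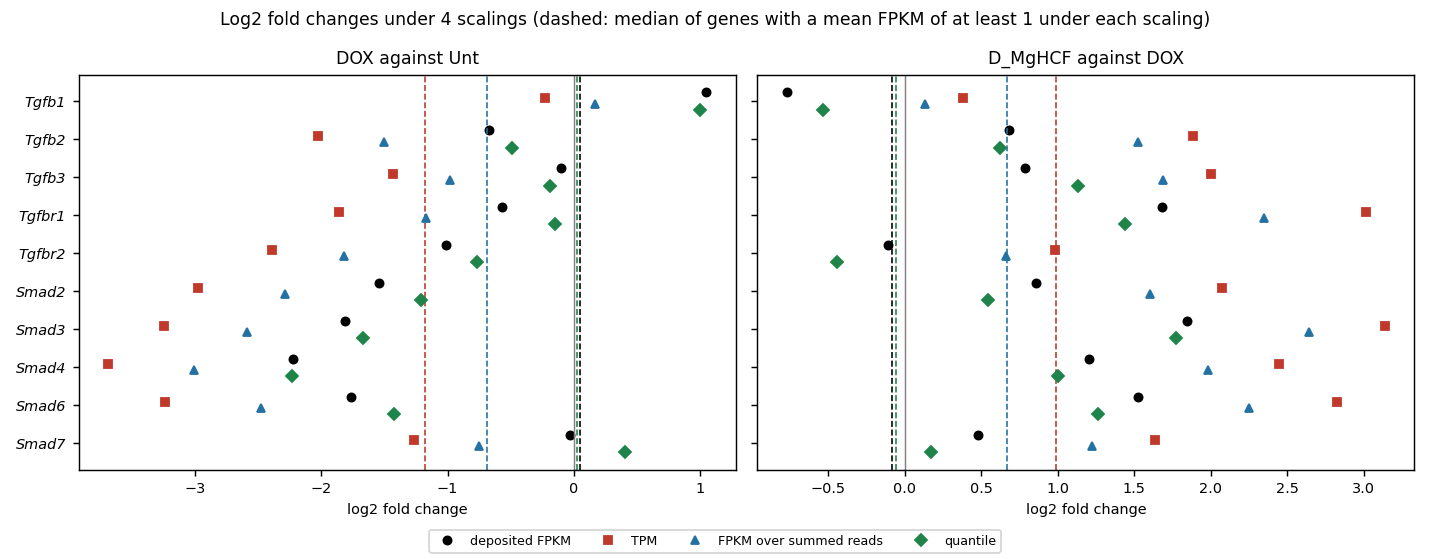
Log2 fold changes (horizontal axes) of the 10 genes (vertical axis) in DOX against Unt and D_MgHCF against DOX under 4 scalings, with the median of 11515 genes as dashed lines. The SMADs called lower in DOX lay left of the dashed line of the same scaling in DOX against Unt and right of it in D_MgHCF against DOX. Tgfb1 lay right of the line in DOX against Unt and left of it in D_MgHCF against DOX, with a sign that turned between scalings.

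Ratios between the genes within a library do not depend on the scaling, and they set the ligands, receptors and SMADs in proportion. The size of a ratio shares the limit on comparing different genes given above, and the groups are compared on the same genes. With 3 libraries a group the exact permutation test cannot go below p = 0.1, and 3 ratios were tested in 6 comparisons each, which makes 18 tests. Tgfb1 made up 25.8, 25.0 and 28.2% of the summed ligand FPKM in Unt, 46.6, 51.6 and 52.4% in DOX, 43.1, 53.0 and 50.7% in D_DXZ and 30.2, 23.6 and 19.6% in D_MgHCF. DOX and D_DXZ thus lay above Unt and D_MgHCF in all libraries, with a difference of 23.8 percentage points between DOX and Unt (exact two-sided permutation p = 0.1, Benjamini-Hochberg adjusted 0.18) and of -25.7 between D_MgHCF and DOX (exact p = 0.1, adjusted 0.18).

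The ratio of Tgfbr1 to Tgfbr2 was 0.289, 0.287 and 0.222 in Unt, 0.491, 0.298 and 0.224 in DOX, 0.286, 0.378 and 0.353 in D_DXZ and 2.11, 3.06 and 0.750 in D_MgHCF. Only D_MgHCF lay apart, above all 9 other libraries, with a log2 difference of 2.68 from Unt (exact two-sided permutation p = 0.1, adjusted 0.18) and 3.27 without its replicate 3. The summed inhibitory SMADs, Smad6 and Smad7, stood to the sum of Smad2, Smad3 and Smad4 as 0.286, 0.293 and 0.298 in Unt, 0.491, 0.580 and 0.631 in DOX, 0.409, 0.552 and 0.678 in D_DXZ and 0.581, 0.408 and 0.329 in D_MgHCF. All treated libraries had a higher ratio than all Unt libraries, by 0.95 on the log2 scale in DOX (exact p = 0.1, adjusted 0.18), and the treated groups overlapped with each other.

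**Figure D4:**
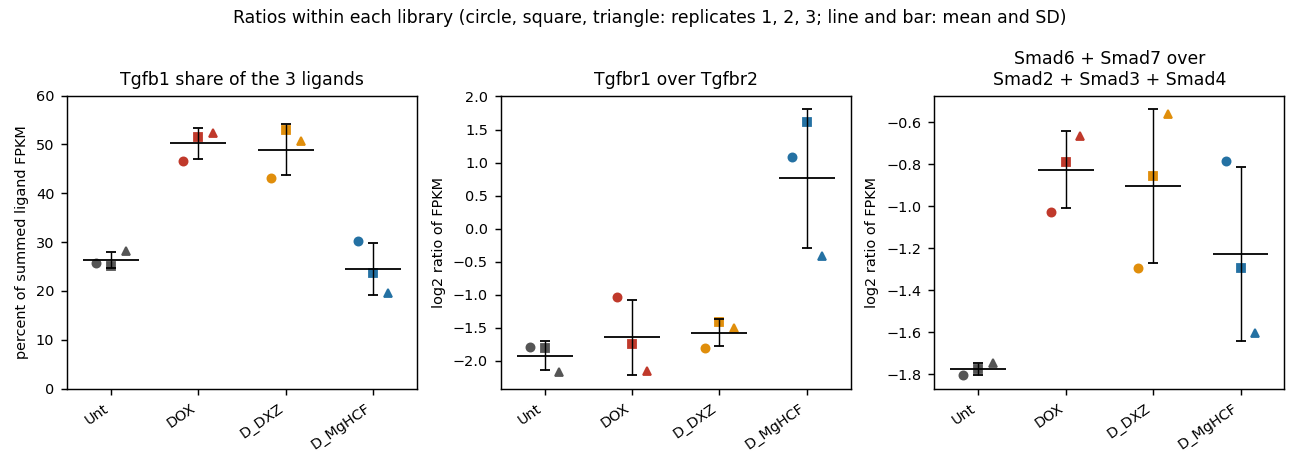
Ratios within each library (vertical axes; percent, or log2 ratio of FPKM) by group (horizontal axes), with points for libraries and the mean and SD of 3 as line and bar. The Tgfb1 share was 43.1 to 53.0% in DOX and D_DXZ and 19.6 to 30.2% in Unt and D_MgHCF, and Tgfbr1 over Tgfbr2 was highest in D_MgHCF.

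Upstream of the receptors, genes of latency and activation hold TGF-beta in the matrix or free it. Of 23 such genes, 13 were higher and 0 lower in DOX against Unt on the deposited scale, with a median log2 fold change of 1.13. Over all genes 18.6% were higher and 19.9% lower. After TPM scaling 6 of the 23 were higher and 2 lower, with a median of 0.08, where 4.44% of all genes were higher and 40.8% lower. Plat, tissue plasminogen activator, had means of 5.72 FPKM in Unt and 33.9 in DOX and rose by 2.38 on the log2 scale (SE 0.239, adjusted p = 2.98e-05 in limma). Itgb1, the shared beta subunit of many integrins, went from 132 to 580 FPKM and Ltbp3, a latent TGF-beta binding protein, from 43.5 to 190.5 FPKM, with log2 fold changes of 2.12 and 2.10. Plat, Itgb1 and Ltbp3 were called higher after TPM scaling too. In D_MgHCF against DOX, 6 of the 23 were higher and 12 lower, where after TPM scaling 11 were higher and 5 lower. The shares of all genes were 31.4% higher and 20.1% lower, or 53.9% and 6.75% after TPM scaling. Ltbp1, another latent TGF-beta binding protein, had 151 FPKM in DOX and 17.9 in D_MgHCF and fell by 3.14 on the log2 scale (SE 0.311, adjusted p = 2.34e-05 in limma), and Fbn1, fibrillin-1, and Itgb5, an integrin beta subunit, had log2 fold changes of -2.04 and -2.01. All 3 remained lower after TPM scaling.

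The other receptors and SMADs were mostly lower with DOX and higher with MgHCF. Of 13 other receptors and co-receptors, 7 were lower and 1 higher in DOX against Unt and 9 higher and 2 lower in D_MgHCF against DOX. After TPM scaling 8 were lower and 1 higher in the former, and 9 higher and 0 lower in the latter. In DOX against Unt 19.9% of all genes were lower and 18.6% higher, or 40.8% and 4.44% after TPM scaling. In D_MgHCF against DOX 31.4% of all genes were higher and 20.1% lower, or 53.9% and 6.75% after TPM scaling. Acvr1, a type I receptor of BMPs, had means of 5.94 FPKM in Unt, 1.41 in DOX and 6.02 in D_MgHCF, with log2 fold changes of -1.54 (adjusted p = 2.44e-05 in limma) and 1.56 (adjusted p = 1.95e-05). Bmpr1a, another BMP receptor, fell by 1.42 on the log2 scale with DOX, Cd109, a co-receptor that binds TGF-beta, was the 1 that rose, by 1.77, and Acvr2a, an activin receptor, rose by 1.72 in D_MgHCF over DOX. Of the 3 SMADs outside the 10 genes, 2 were lower with DOX, Smad1 at -1.22 and Smad5 at -1.19 (adjusted p = 0.000155 and 0.000135 in limma), and both carry BMP signals. With MgHCF 2 of the 3 were higher than in DOX, Smad1 at 1.04 and Smad9 at 0.74.

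Of 28 other ligands of the family, 20 could be tested, with 1 higher and 2 lower in DOX against Unt and 9 higher and 1 lower in D_MgHCF against DOX. After TPM scaling it was 1 higher and 5 lower, and 14 higher and 0 lower. In DOX against Unt 18.6% of all genes were higher and 19.9% lower, or 4.44% and 40.8% after TPM scaling. In D_MgHCF against DOX 31.4% of all genes were higher and 20.1% lower, or 53.9% and 6.75% after TPM scaling. Gdf15, a stress-induced member, had means of 19.4 FPKM in Unt, 4.52 in DOX and 36.2 in D_MgHCF, with log2 fold changes of -2.02 (adjusted p = 0.00125 in limma) and 2.85 (adjusted p = 0.000118). Of 8 secreted antagonists, 7 could be tested, with 3 higher and 0 lower in DOX against Unt, or 2 and 1 after TPM scaling. Fstl1, a follistatin-like protein, went from 133 to 727 FPKM (log2 fold change 2.44, adjusted p = 0.000257 in limma), and to 132 FPKM in D_MgHCF. In D_MgHCF against DOX 2 of the 7 antagonists were higher and 2 lower, or 5 and 2 after TPM scaling. Fst was among the higher ones, with a log2 fold change of 1.17 (adjusted p = 0.0170 in limma).

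Of 29 intracellular regulators, 8 were higher and 16 lower in DOX against Unt, where 18.6% of all genes were higher and 19.9% lower. After TPM scaling 1 was higher and 23 lower, where 4.44% of all genes were higher and 40.8% lower. In D_MgHCF against DOX 13 were higher and 9 lower, where 31.4% of all genes were higher and 20.1% lower. After TPM scaling 24 were higher and 3 lower, where 53.9% of all genes were higher and 6.75% lower. Crebbp, a coactivator of SMAD complexes, had 5.25 FPKM in Unt and 0.649 in DOX, a log2 fold change of -1.93 (SE 0.189, adjusted p = 2.67e-05 in limma), and Tab1, a partner of the kinase Tak1, fell by 2.09. Fkbp1a, which binds the type I receptor, rose by 2.25. With MgHCF the SMAD corepressors Ski and Tgif1 rose by 1.97 and 1.95 on the log2 scale over DOX (adjusted p = 9.42e-05 and 3.45e-05 in limma), and Usp4, a deubiquitinase, fell by 2.01.

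The 44 target genes were divided, with 13 higher and 14 lower in DOX against Unt and a median log2 fold change of 0.00. After TPM scaling 8 were higher and 23 lower. Over all genes 18.6% were higher and 19.9% lower, or 4.44% and 40.8% after TPM scaling. Cyr61, a matricellular protein gene, had 75.0 FPKM in Unt and 5.11 in DOX, Id3, an inhibitor of differentiation, 81.4 and 5.69, and Snai2, a transcription factor of mesenchymal change, 22.0 and 1.17, with log2 fold changes of -3.73, -3.63 and -3.48 (adjusted p from 1.09e-05 to 2.79e-05 in limma). In D_MgHCF against DOX 24 of the 44 were higher and 14 lower, or 29 and 9 after TPM scaling. The shares of all genes were 31.4% higher and 20.1% lower, or 53.9% and 6.75% after TPM scaling. Junb, an AP-1 subunit, rose by 3.11 and Cdkn1a, a cell cycle inhibitor, by 2.64 on the log2 scale, and Col1a2, a fibrillar collagen, fell by 2.86 (adjusted p = 7.68e-06 in limma). In D_DXZ against DOX no gene of any of these 7 lists was called, with 1 to 5 genes higher at an unadjusted p under 0.05 in 5 of the lists and 1 to 4 lower in 3 of them, 3 of the latency and activation genes among these. Many of these genes also respond to other pathways, the doxorubicin response among them, and 5 genes, Tgif1, Skil, Pmepa1, Ldlrad4 and Ltbp2, stand in 2 of the lists.

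**Figure D5:**
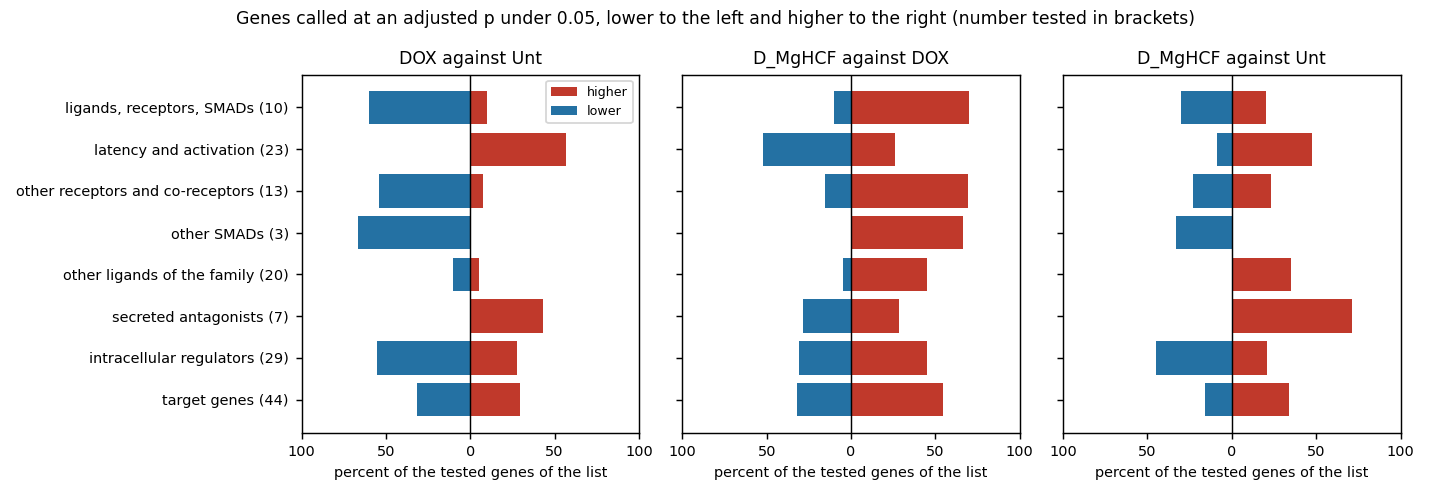
Percent of the tested genes of each list (horizontal axes) called lower (left) or higher (right) at an adjusted p under 0.05 in 3 comparisons, with the number tested in brackets. In DOX against Unt the latency and activation list had 13 of 23 higher and 0 lower as deposited (6 and 2 after TPM scaling). The 10 ligands, receptors and SMADs had 1 higher and 6 lower (0 and 9 after TPM scaling). Over all genes 18.6% were higher and 19.9% lower (4.44% and 40.8% after TPM scaling).

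The gene whose pattern over the 12 libraries was most like that of each of the 10 was sought by Pearson correlation of log2(FPKM + 1) among 11514 other genes, as a description in which the 4 groups set most of the likeness. It was Rgma for Smad3 (0.994), Dgkd for Smad6 (0.995), Crk for Smad4 (0.992), Stambpl1 for Smad2 (0.987) and Sft2d3 for Smad7 (0.902). For the ligands it was Pltp for Tgfb1 (0.992), Gpam for Tgfb2 (0.987) and Cplx2 for Tgfb3 (0.990), and for the receptors Kantr for Tgfbr1 (0.994) and Rcc1 for Tgfbr2 (0.990). Rgma encodes a co-receptor for BMPs. None of the 10 genes was the nearest gene of another.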

How the data were processed

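Poly(A) RNA was sequenced as paired-end reads. HISAT2 2.0.5 and the build GRCm38/mm10 come from the submitters' processing notes. The counting program, the annotation release and how reads of rat cells were assigned to mouse genes are not given in the sources used here. The authors deposited FPKM values of 54345 genes in 12 libraries. In each library FPKM times length moved in equal steps, each taken as 1 read (tolerance 0.01). Depth was 16626514 to 19365119 reads on genes per library. Intervals from counting alone were not used, since the spread between libraries sets the error.

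limma 3.58.1 in R 4.3.3 was run on log2(FPKM + 1), in a joint model of the 4 groups with a trend and without covariates, for the 25044 genes detected in 3 or more libraries. The pseudocount makes fold changes of low genes smaller. Ratios were tested by exact permutation. The 10 genes, the lists and the tests were chosen with earlier results of these data known. Of each other list the text draws on the 3 genes with the largest fold changes in DOX against Unt and in D_MgHCF against DOX among those called, provided that the libraries of both groups did not overlap and the group mean reached 1 FPKM where it was higher. Copies were searched with BLAST 2.17.0 (at least 95% identity over at least 150 bases). The alternatives varied the pseudocount (0.1), the filter (none, or FPKM of at least 1), the scaling (TPM, summed reads, quantile, voom on recovered reads with trimmed-mean factors), a 2-fold minimum, a replicate block, 2-group fits and each library left out. The fit was also run on simulated reads, with the same base levels in all groups and changes planted in DOX only. These reads lacked the difference in summed FPKM between groups, so this run did not test the choice of scaling.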

Additional observations from a re-analysis of the deposited data

How the results depend on the processing

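Of the values behind calls of the 10 genes, 287 under other settings and 390 with 1 library left out kept direction and significance, while 22 and 30 lost significance and 6, all under other settings, turned sign. Leaving out a library of a group not compared could not change the fold change or its direction, only the common estimate of spread. The filters, the replicate block and the 2-group fits also left the fold changes as they were, so direction was not at stake there. The calls of Smad2, Smad3, Smad4, Smad6 and Tgfbr2 in DOX against Unt, and of Smad2, Smad3, Smad6, Tgfb2, Tgfb3 and Tgfbr1 in D_MgHCF against DOX, held in all 21 alternatives. With a 2-fold minimum the number of genes called was 4 for D_MgHCF against DOX, 4 for D_DXZ against Unt, 3 for D_MgHCF against Unt and 3 for D_MgHCF against D_DXZ, where the fold minimum itself removes genes. Without a filter on low values it was 3 for D_MgHCF against Unt, and with 1 library left out it lay between 3 and 6. The replicate block gave 7, 8 and 4 genes for DOX against Unt, D_MgHCF against DOX and D_MgHCF against Unt, and 8, 6 and 0 for D_DXZ against Unt, D_MgHCF against D_DXZ and D_DXZ against DOX. Of 18 pairs of libraries with the same number, 2 deviated together by more than 0.1 (correlations from -0.31 to 0.31). Libraries with different numbers were not compared in this way, so whether the numbers pair the samples stays undecided.

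The log2 fold changes that turned sign follow, and the causes were not tested beyond the scaling that each alternative changes. Under TPM scaling Tgfb1 had -0.23 in DOX against Unt, -0.23 in D_DXZ against Unt, 0.38 in D_MgHCF against DOX and 0.38 in D_MgHCF against D_DXZ. Tgfbr2 had 0.98 and 0.64 in the last 2 comparisons, Smad7 -0.78 in D_DXZ against Unt, Smad3 0.14 in D_DXZ against DOX and -0.11 in D_MgHCF against Unt, and Tgfb2 -0.14 in the latter. With FPKM over the summed reads Tgfb1 had 0.0090 in D_DXZ against DOX, 0.13 in D_MgHCF against DOX and 0.12 in D_MgHCF against D_DXZ, Tgfbr2 had 0.66 and 0.36 in the last 2, Smad3 0.12 in D_DXZ against DOX and Smad7 -0.34 in D_DXZ against Unt. Voom gave -0.10 for Tgfb2 and -0.079 for Smad3 in D_MgHCF against Unt. Quantile normalization gave 0.41 for Smad7 in DOX against Unt and -0.040 in D_MgHCF against D_DXZ. With 1 library left out, changes near 0 turned sign within these ranges: Smad7 from -0.11 to 0.055 in DOX against Unt and from -0.082 to 0.38 in D_MgHCF against D_DXZ, Tgfb2 from -0.034 to 0.091 and Smad3 from -0.23 to 0.16 in D_DXZ against DOX, Tgfbr2 from -0.30 to 0.033 in D_MgHCF against DOX, and Tgfb2 from -0.16 to 0.16 in D_MgHCF against Unt. So did the differences of the Tgfb1 share, from -3.28 to 1.69 percentage points in D_DXZ against DOX and from -4.73 to 0.60 in D_MgHCF against Unt. The log2 ratio of Tgfbr1 to Tgfbr2 ran from -0.030 to 0.53 in DOX against Unt and from -0.18 to 0.38 in D_DXZ against DOX, and that of the inhibitory to the other SMADs from -0.25 to 0.12 in D_DXZ against DOX. With 3 libraries a group, the ratios could not reach an exact p under 0.1.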
